A study of Mus musculus with 9 samples.

Results

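Adenocarcinomas of the submandibular salivary gland were compared with dysplastic submandibular glands in Smgb-Tag mice. The members were 6 of the 9 arrays of the series: the 3 arrays whose titles name an adenocarcinomatous gland (adenocarcinoma 1, 2 and 3) and the 3 whose titles name a dysplastic gland (dysplasia 1, 2 and 3). The other 3 arrays, from glands labelled normal, enter below as values only. All 9 samples carry the Smgb-Tag genotype, the normal ones included, so no group lacks the transgene. In this line the regulatory region of Smgb, a gene of the secretory cells of the young submandibular gland, directs the SV40 large T antigen, a viral protein known to inactivate p53 and RB. The samples were total RNA from whole submandibular tissue, labelled with biotin. The labels used here name no strain, sex or age. They also do not say that the replicates came from separate animals, so a p-value here reflects the variation among these arrays, part of which may be technical.

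Acinar cells of salivary glands make and release much of the protein of saliva, among them amylases, chitinase, nucleases and small proline-rich or cystatin proteins. Genes grouped as acinar below are named for this cell type, not for the submandibular gland alone. Granular convoluted tubules, a part of the ducts of rodents, store kallikreins and growth factors such as EGF. In an adenocarcinoma, a malignant tumour of gland-forming epithelium, these secretory products may be kept or lost, while in dysplasia the epithelium is abnormal but not yet invasive.

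Each array gave intensities for 45281 probes, analysed on the log2 scale, and a gene was tested where a probe lay above the background level, 6.34, on at least 3 of the 6 arrays. That left 11940 genes, each represented by its brightest probe. The highest value on the arrays was 15.63, so levels near it may understate abundant transcripts. Replicate values are listed in the order 1, 2, 3, and the difference of a gene is the mean log2 value of adenocarcinoma minus that of dysplasia, with the moderated standard error of limma (SE, n = 3 arrays in each group). Of the markers of each tissue, 5 of 6 acinar and 3 of 4 epithelial markers lay above background on all 6 arrays, and the acinar marker Car6 on none of them. Adenocarcinoma 3 stood apart: over the tested genes it correlated with the other 5 arrays at 0.854 to 0.914. Adenocarcinoma 2, by contrast, correlated at 0.976 with dysplasia 2 and at 0.947 with adenocarcinoma 1. Dysplasia 1 also had low pairs, at 0.897 with adenocarcinoma 1 and 0.901 with dysplasia 3, but was at 0.962 with adenocarcinoma 2. The normal arrays were not uniform. Normal 3 correlated at 0.864 and 0.873 with normal 1 and 2, but at 0.967 with dysplasia 2 and 0.97 with adenocarcinoma 2. These values describe pairs of arrays across genes, which are not independent replicates. The number of arrays limits the precision.

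With limma and an adjusted p threshold of 0.05, no gene was called with Benjamini-Hochberg adjustment over all genes tested (0% of 11940, lowest adjusted p = 0.56). At an unadjusted p under 0.05, limma gave 528 genes, or 4.42%, with 258 higher and 270 lower in adenocarcinoma. That share is no larger than the threshold of 0.05 itself. With 3 arrays in each group, the smallest p of an exact permutation test is 0.1, so none was run. What follows describes which genes were ordered by group on every array and how far apart the groups lay, with no call behind any of them. The groups did not overlap for 1227 genes (10.3%), of which 449 (3.76%) were higher on all 3 adenocarcinoma arrays than on any dysplasia array and 778 (6.52%) lower. For a gene unrelated to group, the probability of such a separation in either direction is also 0.1. The share of 10.3% is near that value, so the count of 1227 is not read as a group difference. The median difference over all genes tested was -0.05, and 43.3% of the genes had a difference above 0. For 7 genes (0.0586%) the nearest arrays of the groups were at least 1 log2 unit apart, a distance called the gap here, and all 7 were higher in adenocarcinoma. No gene was lower by such a gap (0%).

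Of the 7 genes with a gap of at least 1, the 5 genes Amy1, Smr3a, Amy2a5, Chia1 and Dnase1 encode salivary or pancreatic enzymes and secreted proteins, and the other two are Cdo1, which had the largest gap, and Barx2. The promoters of those 5 genes are shown because these genes ordered the 6 arrays in much the same way. Each window runs from 250 bases before to 50 bases after an annotated start, 5′ to 3′ on the gene's strand, from RefSeq (GRCm38.p6), and capitals mark TATAAA on either strand. Of the 7 genes, 5 had an entry in the promoter table used here. Amy1 and Dnase1 each have 2 annotated starts, and for Dnase1 only the upstream window is shown.
Amy1, upstream start, chr3:113577701-113578000, minus strand: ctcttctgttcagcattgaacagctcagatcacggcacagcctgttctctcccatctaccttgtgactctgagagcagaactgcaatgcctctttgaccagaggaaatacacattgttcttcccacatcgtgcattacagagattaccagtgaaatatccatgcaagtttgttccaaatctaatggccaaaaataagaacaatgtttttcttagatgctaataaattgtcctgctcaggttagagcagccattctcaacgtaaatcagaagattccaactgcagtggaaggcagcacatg
Amy1, downstream start, chr3:113574713-113575012, minus strand: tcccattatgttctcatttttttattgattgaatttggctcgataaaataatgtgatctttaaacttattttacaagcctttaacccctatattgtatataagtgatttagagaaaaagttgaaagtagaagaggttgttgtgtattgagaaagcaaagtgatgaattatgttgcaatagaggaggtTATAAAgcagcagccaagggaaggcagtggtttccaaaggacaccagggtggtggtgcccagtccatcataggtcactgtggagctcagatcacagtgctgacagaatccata
Amy2a5, chr3:113258650-113258949, minus strand: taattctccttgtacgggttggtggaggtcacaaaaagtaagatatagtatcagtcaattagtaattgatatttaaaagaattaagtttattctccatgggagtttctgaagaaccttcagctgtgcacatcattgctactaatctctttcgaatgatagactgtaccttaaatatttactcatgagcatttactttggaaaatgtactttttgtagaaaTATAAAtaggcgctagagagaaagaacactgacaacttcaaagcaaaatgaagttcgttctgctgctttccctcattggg
Smr3a, chr5:88002275-88002574, plus strand: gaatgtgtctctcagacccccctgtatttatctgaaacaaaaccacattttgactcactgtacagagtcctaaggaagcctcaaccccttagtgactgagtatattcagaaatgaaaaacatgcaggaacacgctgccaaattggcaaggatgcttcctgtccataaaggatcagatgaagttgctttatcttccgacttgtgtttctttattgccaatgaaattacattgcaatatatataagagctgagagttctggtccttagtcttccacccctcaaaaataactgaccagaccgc
Chia1, chr3:106113132-106113431, plus strand: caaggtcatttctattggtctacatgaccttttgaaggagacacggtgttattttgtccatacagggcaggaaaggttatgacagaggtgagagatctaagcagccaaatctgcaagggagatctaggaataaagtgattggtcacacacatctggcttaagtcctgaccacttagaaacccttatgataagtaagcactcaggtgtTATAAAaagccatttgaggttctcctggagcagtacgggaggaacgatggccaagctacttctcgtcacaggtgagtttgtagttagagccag
Dnase1, upstream start, chr16:4036786-4037085, plus strand: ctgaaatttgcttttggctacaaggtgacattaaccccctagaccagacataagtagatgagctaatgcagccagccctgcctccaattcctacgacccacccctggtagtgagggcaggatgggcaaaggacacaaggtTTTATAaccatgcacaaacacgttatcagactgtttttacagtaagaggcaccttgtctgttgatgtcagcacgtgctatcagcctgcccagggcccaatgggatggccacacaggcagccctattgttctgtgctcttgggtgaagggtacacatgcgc
The letters TATAAA began 30 bases before the start of Amy2a5, 43 bases before that of Chia1 and 63 bases before the downstream start of Amy1. In Dnase1 they lay on the other strand, beginning 110 bases before the upstream start and 219 bases before the downstream start. Neither the upstream Amy1 window nor the Smr3a window held them. Of 32851 RefSeq promoter windows of this length, 4473, or 13.6%, hold TATAAA on either strand, and a match is only a match of letters.

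Amy1, the amylase gene of salivary glands on chromosome 3, was at 9.06, 7.26 and 6.74 on the dysplasia arrays and at 14.57, 11.24 and 14.54 on the adenocarcinoma arrays. The lowest adenocarcinoma value lay 2.17 above the highest dysplasia value. Its difference was 5.76 ± 1.07 (SE), or 54.3-fold, with an adjusted p of 0.83 in limma. On the normal arrays Amy1 was at 15.38, 15.14 and 13.73, so adenocarcinoma 1 and 3 were close to the normal glands and adenocarcinoma 2 lay between them and dysplasia. Amy2a5, an amylase gene known from the pancreas, was at 11.98, 9.22 and 8.59 in dysplasia and at 15.18, 13.89 and 15.13 in adenocarcinoma, a difference of 4.80 ± 0.92. Amylase genes are near copies of each other, so probes of one may take up transcripts of the other, and the pair is not evidence of separate genes.

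Smr3a, which encodes a submandibular secreted prohormone-like protein, had a difference of 6.47 ± 1.29, or 88.6-fold, and its second probe one of 5.76. Its values were 9.55, 7.28 and 6.53 in dysplasia and 15.63, 11.68 and 15.46 in adenocarcinoma, of which 15.63 is the top of the scale. Chia1, an acidic chitinase, was at 11.28, 7.35 and 6.76 in dysplasia and at 15.35, 13.01 and 15.32 in adenocarcinoma. The gap of Chia1 was 1.73. Dnase1, a secreted DNA-cutting enzyme on chromosome 16, was at 7.93, 6.33 and 6.15 in dysplasia and at 14.09, 9.53 and 14.82 in adenocarcinoma, a difference of 6.01 ± 1.42. Only 1 of the 3 dysplasia values of Dnase1 was above background, so its size is uncertain. Cst10, a cystatin, came just under the 1-unit gap at 0.95, with 8.98, 6.51 and 6.34 against 14.92, 9.93 and 15.22. In each of these 6 genes the order of arrays was alike: adenocarcinoma 2 was the lowest of the adenocarcinomas, and dysplasia 1 the highest of the dysplasias.

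That separation was not shared by the whole acinar list. Of 24 tested genes of acinar secretion, 8 were higher on all 3 adenocarcinoma arrays (3.76% of all genes tested were), 4 of them by a gap of at least 1, and none was lower. The 8 were Amy1, Smr3a, Chia1, Dnase1, Cst10, Dcpp3, Dcpp2 and Bpifa2. The median difference of the list was 1.61, and 1.51 without adenocarcinoma 3. The array medians were 9.83, 9.36 and 9.94 in dysplasia and 14.66, 11.76 and 12.92 in adenocarcinoma. Dcpp3 and Dcpp2, close copies in a family of demilune cell proteins, had differences of 4.08 ± 1.08 and 3.96 ± 1.12. Bpifa2, the parotid secretory protein, was at 14.69, 10.61 and 12.54 against 15.33, 14.80 and 15.29, where dysplasia 1 came within 0.11 of adenocarcinoma 2.

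Other acinar genes overlapped between the groups or ran the other way. Bhlha15, which encodes the transcription factor MIST1 of secretory cells, was at 12.24, 11.99 and 10.30 in dysplasia and at 10.68, 11.74 and 10.66 in adenocarcinoma. Its difference was -0.48 ± 0.59. Aqp5, the water channel of acinar cells, was at 13.72, 14.02 and 14.40 against 13.23, 14.08 and 11.09, so only adenocarcinoma 3 lay far below dysplasia. Pip, a prolactin-induced secreted protein, was low on dysplasia 3 alone, at 9.31 against 13.73 and 14.65 on the other dysplasia arrays. In bulk tissue, fewer cells of a type and less RNA per cell cannot be told apart. Whether tissue of a neighbouring salivary gland was present in any sample was not tested.

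**Figure D1:**
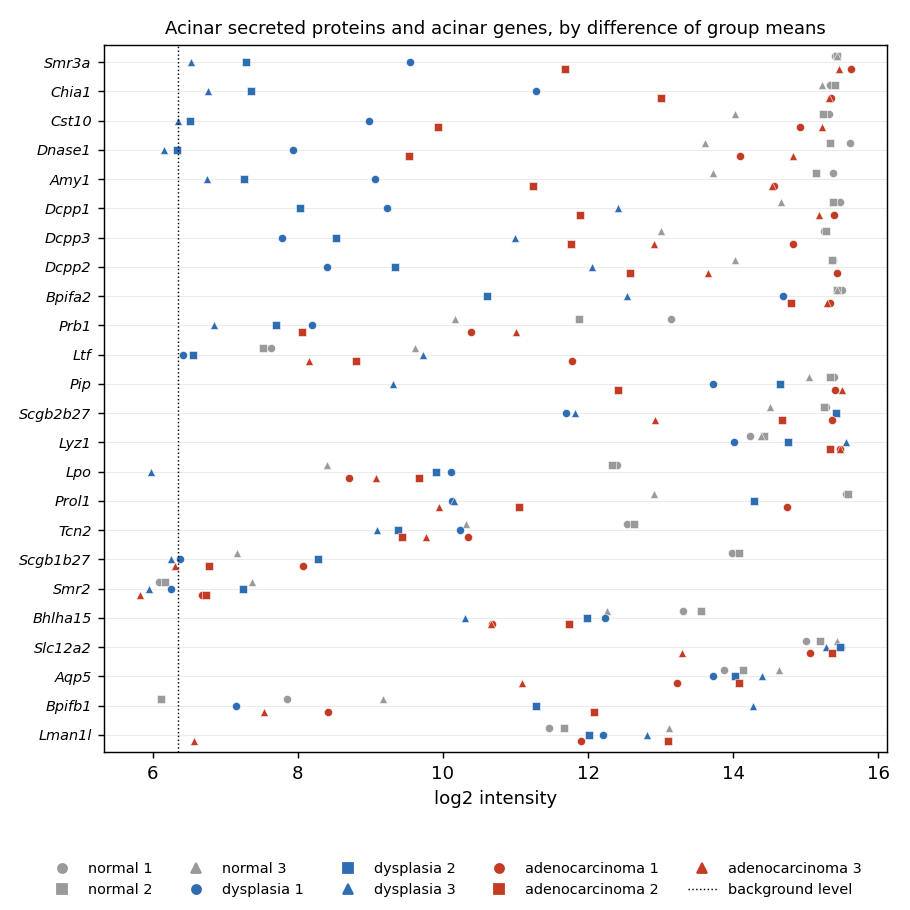
Log2 intensity (horizontal axis) of the 24 tested acinar genes on each of the 9 arrays, ordered by the difference between adenocarcinoma and dysplasia; colour marks the group, the symbol the replicate and the dotted line the background level. From Smr3a to Amy1 the adenocarcinoma arrays lie to the right of all dysplasia arrays, with adenocarcinoma 2 nearest to them, while Bhlha15, Aqp5 and Lman1l overlap.

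Tubule products did not follow the same order. All 13 tested tubule genes, 12 kallikreins and Egf, had differences above 0, from 1.09 to 2.09, yet in none of them did the groups separate. The list median was 12.70 on dysplasia 2 and 14.96 on adenocarcinoma 1, against 7.12 to 8.71 on the other dysplasia arrays and 10.44 and 7.60 on adenocarcinoma 2 and 3. Egf was at 8.73, 12.10 and 8.12 in dysplasia and at 14.34, 10.54 and 8.29 in adenocarcinoma. Without adenocarcinoma 1 its difference was -0.23, so the direction rested on that array. Klk1b1 and Klk1b27 had the largest differences of the list, 2.09 ± 1.96 and 1.91 ± 1.56, and Klk1b1 too was at -0.21 without adenocarcinoma 1. Kallikrein genes are close copies, so their probes do not count as 12 separate measurements.

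Transcription factors of the salivary epithelium held 1 of the clearest separations. Barx2, a homeobox factor of branching glands, was at 6.10, 6.48 and 6.41 in dysplasia, above background on 2 of 3 arrays, and at 8.97, 8.26 and 8.36 in adenocarcinoma. Its difference was 2.20 ± 0.24, or 4.59-fold, with an adjusted p of 0.56 in limma. A second Barx2 probe gave 5.98, 5.98 and 5.97 against 6.71, 6.72 and 6.73, a difference of 0.75 in the same direction. Elf5, an ETS factor of secretory epithelium, was at 5.89, 7.64 and 6.26 against 8.77, 7.74 and 8.78, with dysplasia 2 only 0.09 below adenocarcinoma 2. Other probes of Elf5 had differences of 0.10 and 0.45. Spdef, another ETS factor of secretory cells, was lower on all adenocarcinoma arrays at 9.23, 9.77 and 7.09 against 9.94, 10.32 and 10.23. These 3 were the members without overlap among 21 tested factors, 2 higher and 1 lower, against 3.76% and 6.52% of all genes tested.

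Genes outside secretion also separated on every array. Cdo1 on chromosome 18, which encodes the enzyme that oxidises cysteine, had the largest gap of all genes tested, 2.28. Cdo1 was at 7.26, 8.13 and 7.31 in dysplasia and at 10.62, 10.41 and 11.06 in adenocarcinoma, a difference of 3.13 ± 0.31 (8.76-fold, adjusted p = 0.56 in limma). The 3 adenocarcinoma values of Cdo1 lay closer together than those of Amy1, Smr3a, Chia1 and Dnase1. The normal arrays were at 12.74, 12.29 and 9.18. Lmo2, a LIM-domain regulator of blood and endothelial cells, was at 8.85, 9.75 and 9.63 against 11.10, 10.70 and 11.04. Itgb6, the integrin beta chain that activates TGF-beta, was at 7.32, 7.45 and 8.13 against 10.34, 9.03 and 9.38, and its other probes above background also had differences above 0 (0.74 to 1.95 over its probes past the filter). Lrig3 and Lrig1, membrane proteins of a family that restrains receptor tyrosine kinases, had gaps of 0.85 and 0.65. Lrig1 was at 9.19, 8.81 and 8.23 against 9.91, 9.84 and 10.12. A second Lrig3 probe had a difference of only 0.19. Sms-ps, annotated as a copy of the spermine synthase gene, was at 9.64, 8.38 and 8.74 against 10.61, 10.53 and 10.50.

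Timp3, an inhibitor of matrix metalloproteinases, was at 8.01, 11.21 and 10.60 in dysplasia and at 11.76, 12.77 and 13.34 in adenocarcinoma, a difference of 2.68 ± 0.89, although its probes had differences from 0 to 2.68. Among 25 matrix remodelling enzymes and inhibitors it was the only member without overlap (10.3% of all genes tested were). Bmp7, a BMP ligand, was below background on all 3 dysplasia arrays and at 7.20, 6.56 and 9.53 in adenocarcinoma. The group means differed by at least 2.68-fold, with adenocarcinoma 3 far above the others and adenocarcinoma 2 near background. A second Bmp7 probe lay near background on all 6 arrays, with a difference of -0.21. Bmpr1b, a receptor for such ligands, was at least 1.34-fold higher on group means, also from below background. Its other probes lay mostly below background, with differences from -0.21 to 0.29. For the receptor Bmpr1a, the brightest probe was lower at 9.28, 9.29 and 8.73 against 10.52, 9.69 and 9.68. A second Bmpr1a probe overlapped, at 8.71, 9.13 and 8.94 against 8.45, 9.26 and 9.25, a difference of -0.06.

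**Figure D2:**
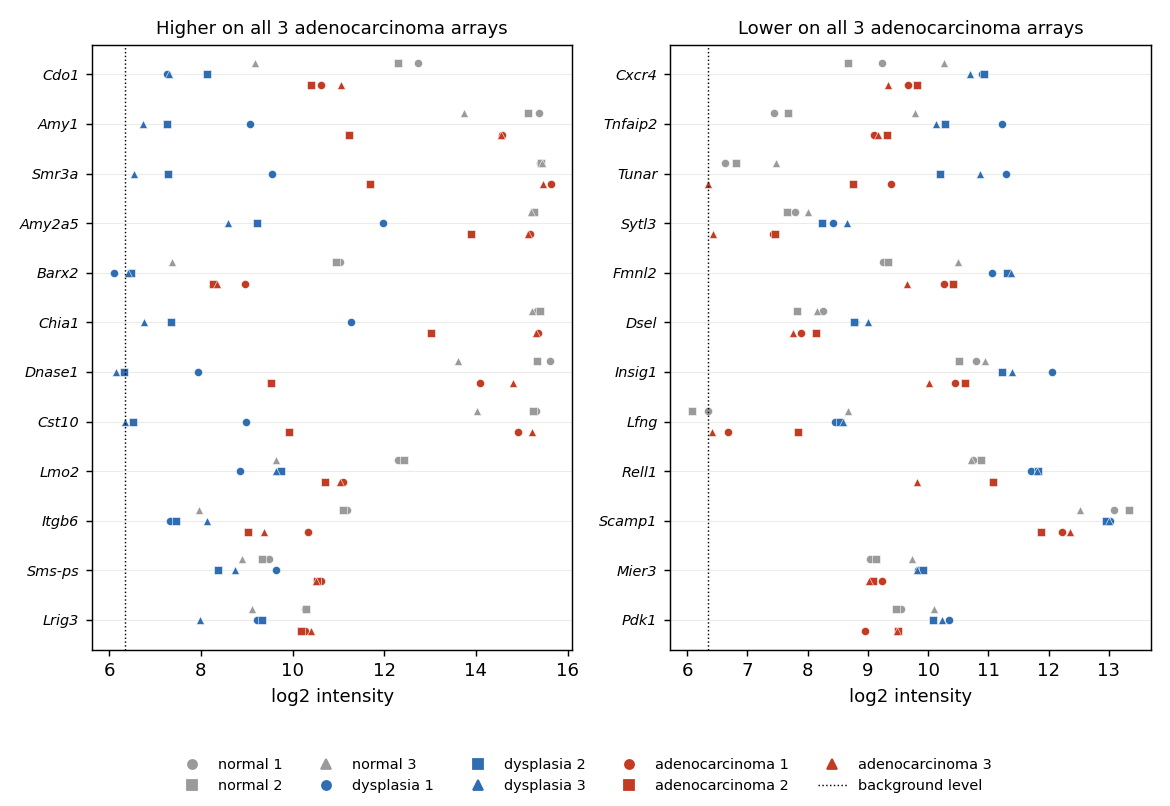
Log2 intensity (horizontal axis) of the 12 genes with the largest gap in each direction on each of the 9 arrays; colour marks the group, the symbol the replicate and the dotted line the background level. In the left panel the adenocarcinoma arrays lie above dysplasia by gaps of 0.85 to 2.28, and the right panel shows them lower by at most 0.88.

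Macrophage genes were the other list with many members higher on every adenocarcinoma array. Of 24 tested members, 9 did not overlap and were higher (3.76% of all genes tested were), 21 had differences above 0, and the median difference was 0.96, or 0.84 without adenocarcinoma 3. The 9 were Ms4a7, Trem2, C1qc, Fcgr1, C1qb, Tyrobp, Adgre1, Cd84 and Mpeg1. Ms4a7, a membrane protein of tissue macrophages, was at 9.92, 11.13 and 10.50 in dysplasia and at 12.58, 11.53 and 12.15 in adenocarcinoma, a difference of 1.57 ± 0.40. Trem2, a lipid-sensing receptor, was at 8.92, 9.56 and 9.52 against 10.52, 9.94 and 11.08. The complement subunits C1qc and C1qb, made largely by macrophages in tissue, had differences of 1.39 ± 0.43 and 1.10 ± 0.41. Fcgr1, the high-affinity Fc receptor, was at 6.70, 7.20 and 7.06 against 8.62, 7.50 and 8.15. The gaps were small throughout, at most 0.40, and Adgre1, Cd84 and Mpeg1 were within 0.04 of overlap.

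The dysplasia arrays differed widely among themselves in these genes. The array median of the macrophage list was 8.59, 9.39 and 10.40 in dysplasia and 10.81, 9.70 and 10.47 in adenocarcinoma, so dysplasia 3 lay above adenocarcinoma 2. The summed linear intensity of the macrophage markers measured (4 of 5) ran from 2350 to 5610 in dysplasia and from 5960 to 12400 in adenocarcinoma. Without dysplasia 3, 19 of the 24 members were higher without overlap, but so were 13.4% of all genes in that setting. All other members overlapped, core macrophage genes included. Csf1r was at 7.84, 8.35 and 9.13 in dysplasia and at 9.96, 8.78 and 10.19 in adenocarcinoma. C1qa, the partner of C1qb and C1qc, was at 8.74, 9.56 and 9.91 against 10.95, 9.75 and 10.29. Cd163 had a difference of -0.08. Cd14, a receptor for bacterial lipopolysaccharide, was at 14.44 on dysplasia 3, and Arg1 and Marco were also at their highest of the 6 arrays there. Dysplasia 3 had a summed intensity of the neutrophil markers of 10000, against 381 and 650 on dysplasia 1 and 2 and 1590 to 2870 in adenocarcinoma. The part of cell numbers in these differences was not tested.

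Ccl5, a chemokine of T cells and other leukocytes, was at 7.99, 8.36 and 7.89 in dysplasia and at 10.99, 8.90 and 8.98 in adenocarcinoma, a difference of 1.54 ± 0.58. It and the signalling adaptor Lat were the 2 members higher without overlap among 13 tested T and NK cell genes, against 3.76% of all genes tested. Ifit2, an interferon-induced gene, was the 1 such member among 30 interferon response genes, a share near that of all genes tested (3.76%), at 7.12, 8.80 and 7.81 against 10.25, 9.02 and 9.28. Summed T cell markers were at 253 to 371 in dysplasia and 302 to 1060 in adenocarcinoma, so these ranges overlapped.

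**Figure D3:**
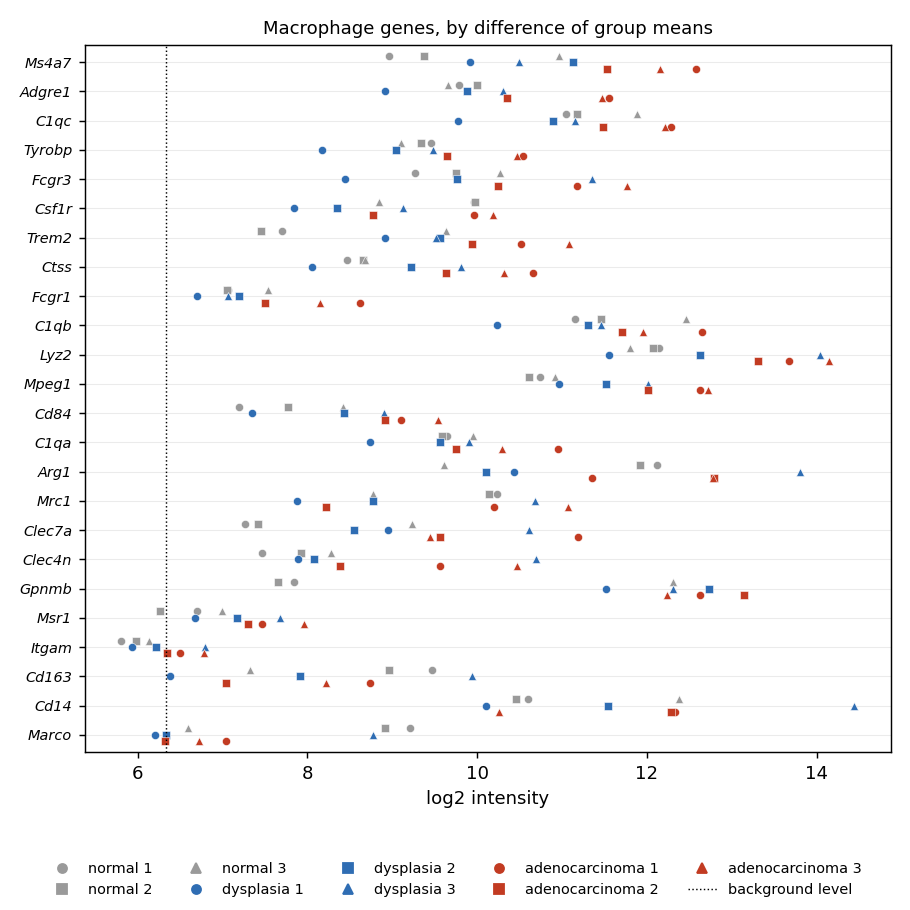
Log2 intensity (horizontal axis) of the 24 tested macrophage genes on each of the 9 arrays, ordered by the difference between adenocarcinoma and dysplasia; colour marks the group, the symbol the replicate and the dotted line the background level. Dysplasia 1 is the lowest of the 6 arrays for most members, and adenocarcinoma 2 is the lowest adenocarcinoma array for Ms4a7, Trem2 and Fcgr1.

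Among genes lower in adenocarcinoma, Cxcr4 had the largest gap. Cxcr4, the receptor of the chemokine CXCL12, was at 10.89, 10.92 and 10.69 in dysplasia and at 9.67, 9.82 and 9.33 in adenocarcinoma, with normal glands at 9.23, 8.67 and 10.26. Its difference was -1.23 ± 0.19 (adjusted p = 0.83 in limma) and the values within each group lay close together. Tnfaip2, a gene induced by tumour necrosis factor, was at 11.22, 10.28 and 10.13 against 9.10, 9.31 and 9.16, and all 3 of its probes were lower. Tunar, a long RNA known from neural and stem cells, was at 11.29, 10.19 and 10.86 against 9.38, 8.75 and 6.34, with the last value at background on adenocarcinoma 3. Sytl3 and Scamp1, which act in vesicle traffic, and Fmnl2, an actin-nucleating formin, had differences of -1.34, -0.84 and -1.13. Dsel, Rell1 and Mier3 were also among the 12 genes with the largest gaps among those lower, with differences from -1.12 to -0.74.

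Sterol synthesis was represented by several of the genes lower on all adenocarcinoma arrays. Insig1, a sterol-sensing protein that holds back the SREBP factors, was at 12.05, 11.23 and 11.40 in dysplasia and at 10.44, 10.61 and 10.01 in adenocarcinoma, a difference of -1.21 ± 0.28 that its probes past the filter shared in sign. Of 24 tested genes of cholesterol and fatty acid synthesis, 5 were lower without overlap (6.52% of all genes tested were) and none higher. The other four were Sqle and Mvd, enzymes of the sterol pathway, Srebf2, which encodes the transcription factor SREBP-2, and Hsd17b7, another enzyme of that pathway. Mvd was at 8.43, 8.16 and 8.15 against 7.41, 7.96 and 7.52. Sqle was at 11.13, 11.21 and 11.11 against 10.74, 10.87 and 10.80, a difference of only -0.35. The list as a whole had a median difference of -0.11, near that of all genes, and the fatty acid enzyme Scd1 was at 11.12, 12.14 and 11.82 against 14.37, 11.51 and 12.67.

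Of 18 tested genes of the Notch pathway, 4 were lower without overlap (6.52% of all genes tested were) and none higher. Lfng, a sugar transferase that modifies Notch receptors, was at 8.46, 8.53 and 8.58 in dysplasia and at 6.67, 7.84 and 6.41 in adenocarcinoma, while the normal arrays were at 6.34, 6.08 and 8.67. Dlk1, a membrane protein related to Notch ligands, was at 15.15, 15.27 and 15.34 against 14.11, 15.03 and 9.74. Its difference of -2.29 ± 1.33 came mostly from adenocarcinoma 3, and adenocarcinoma 2 lay only 0.12 below dysplasia near the top of the scale. A second Dlk1 probe, at 14.90, 14.70 and 13.69 against 12.22, 15.23 and 7.39, overlapped, with adenocarcinoma 2 above every dysplasia array. The co-activator Maml1 and the Notch-binding adaptor Numb had small differences, -0.45 and -0.20. The median of the list was -0.04. Pdk1, a kinase that keeps pyruvate out of mitochondria, was lower at 8.96, 9.50 and 9.48 against 10.34, 10.08 and 10.23, and Adm, encoding adrenomedullin, at 7.52, 7.02 and 7.58 against 7.73, 8.03 and 8.66. They were among 3 members lower without overlap of 28 hypoxia and glycolysis genes, against 6.52% of all genes tested.

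Few genes of cell division separated the groups on every array, though most had differences below 0. Among the 45 tested genes of the E2F list, which act in DNA synthesis, 1 was lower without overlap and none was higher. Of all genes tested, 6.52% were lower and 3.76% higher in that way. The 1 gene was Rfc2, a subunit of the clamp loader, with a difference of -0.44 ± 0.20. Of 38 mitosis genes none separated. Differences were below 0 for 36 of the E2F genes and 28 of the mitosis genes. Over all genes tested, 6773 of 11940 were below 0. The median differences of the 2 lists were -0.22 and -0.16, against -0.05 for all genes tested. Pbk, a mitotic kinase, was at 13.81, 13.59 and 12.50 in dysplasia and at 12.44, 13.51 and 11.96 in adenocarcinoma. Cdkn2a, the tumour suppressor locus of p16 and ARF, was at 10.94, 10.78 and 11.25 against 11.07, 10.91 and 10.08, a difference of -0.31 ± 0.30. Rb1, Myc and Ccnd1 likewise overlapped, with differences of -0.29 ± 0.34, -0.03 ± 0.15 and 0.41 ± 1.09. Csrp1, a LIM-domain protein of smooth muscle, was at 12.85, 12.75 and 12.74 against 12.95, 13.03 and 12.80, and Mmp12, a macrophage elastase, had a difference of 0.66 ± 0.57. Il1rn, the interleukin-1 receptor antagonist, was at 14.41 on dysplasia 3, and its difference of -0.80 ± 1.40 was 0.63 without that array and 0.12 without adenocarcinoma 3.

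**Figure D4:**
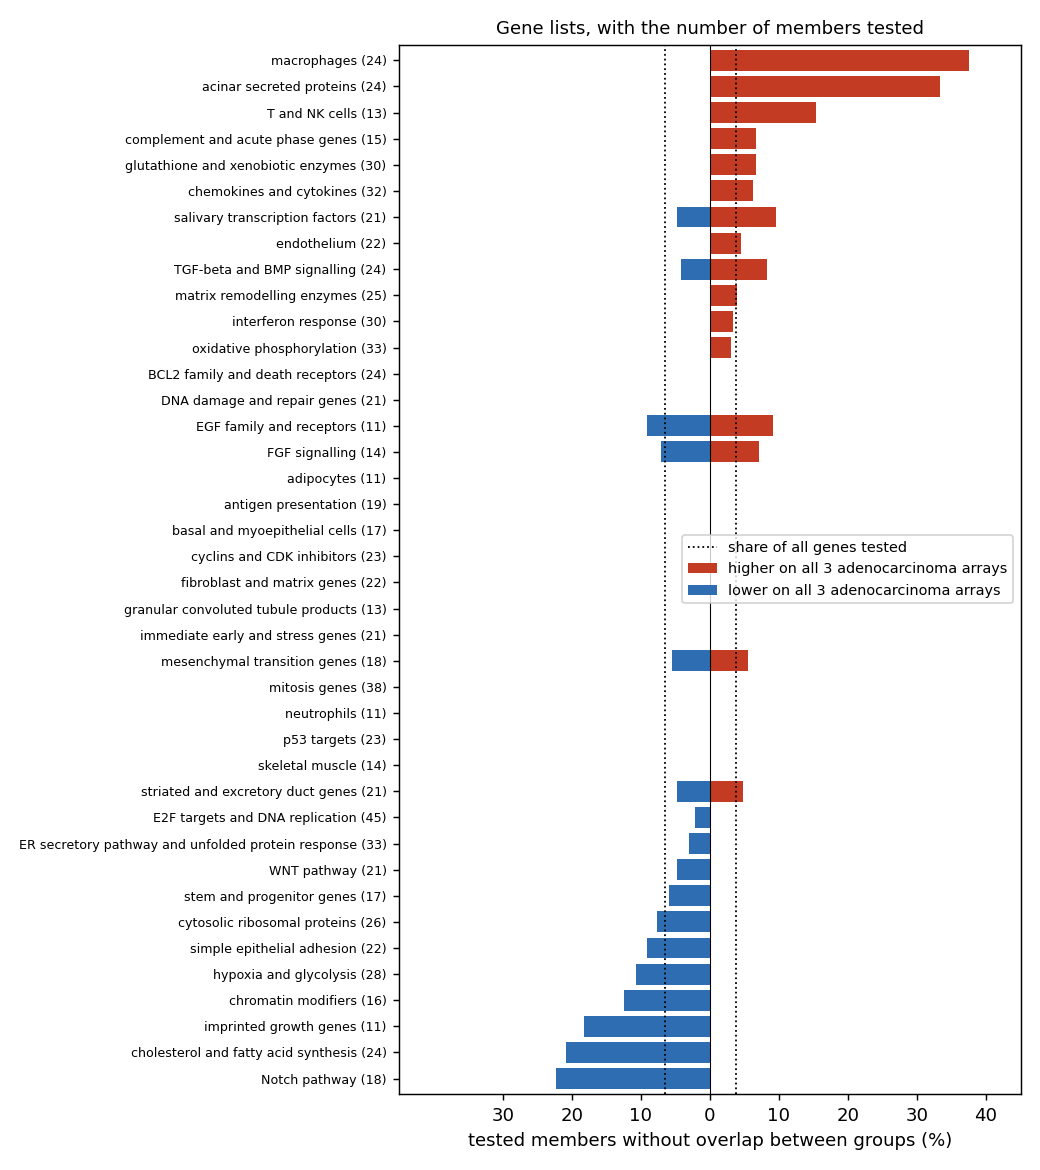
Share of tested members (horizontal axis, percent) higher on all 3 adenocarcinoma arrays (red, to the right) or lower on all 3 (blue, to the left) than every dysplasia array, for gene lists with at least 10 tested members, whose number stands in brackets; dotted lines mark the shares of all genes tested, 3.76% and 6.52%. Macrophage and acinar genes reach farthest to the right, and Notch and cholesterol genes farthest to the left.

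A separate group of genes differed on adenocarcinoma 3 alone. A gene was counted here where adenocarcinoma 3 lay at least 2 log2 units outside all 5 other arrays while adenocarcinoma 1 and 2 stayed within 0.5 of the dysplasia range. There were 128 such genes, 81 higher (0.678% of all genes tested) and 47 lower (0.394%), against 34 for adenocarcinoma 1, 27 for dysplasia 3, 12 for dysplasia 1, 2 for dysplasia 2 and 1 for adenocarcinoma 2, counted in the same way. These genes say nothing of adenocarcinoma as a group. They were chosen for this pattern, so their values are a description.

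The 81 included 7 Hox genes, homeobox genes whose proteins set regional identity along the body axis; they were grouped after their values were seen. Hoxc6, on chromosome 15, was at 12.79 on adenocarcinoma 3 and at 6.07 to 7.06 on the 5 other arrays. Hoxa5 was at 12.33, with the others at most at 6.74, and Hoxa7 at 11.60, with the others at 6.44 to 6.63. Hoxb7, Hoxb5, Hoxb4 and Hoxb2 belonged to the same group. Nkx2-1, a factor of lung, thyroid and forebrain, was at 12.71 against 6.11 to 6.43, though a second Nkx2-1 probe read only 6.51 on that array and 6.07 to 6.16 on the others of this comparison. Cst11 and Wfdc6a, a cystatin and a protease inhibitor known from the epididymis, were at 14.79 and 11.63 and at most at 6.59 and 6.42 on the 5 other arrays. Crygn and Ntn5 were at 11.94 and 11.51.

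Muscle and matrix genes were high on the same array, though fibroblast markers were high on other arrays too. Of 14 skeletal muscle genes tested, all had differences above 0, 5 of them were higher on adenocarcinoma 3 alone (0.678% of all genes tested were), and none separated the groups. Their median difference of 1.79 became 0.40 without adenocarcinoma 3. Pvalb, the calcium buffer parvalbumin, was at 12.33 on adenocarcinoma 3, 8.17 on adenocarcinoma 1 and 5.99 to 6.57 in dysplasia, and Myl1, a myosin light chain, at 14.20 on adenocarcinoma 3. The summed intensity of the skeletal muscle markers was 16300 on adenocarcinoma 3 and 304 to 1290 on the 5 other arrays. On the normal arrays it was 3330, 3330 and 743. The summed fibroblast markers were at 20400, 3870 and 23900 in adenocarcinoma and at 1120 to 9700 in dysplasia. They were at 27700, 31000 and 5740 on the normal arrays. Fibroblast and matrix genes had a median difference of 1.15 with that array and 0.36 without it, and 22 of 22 tested were above 0 with none separated.

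The 47 genes low on adenocarcinoma 3 alone included 4 of the epithelial adhesion list and 2 of the acinar list (0.394% of all genes tested were low there alone). Foxa1, a pioneer factor of glandular epithelium, was at 6.19, below background, against 11.65 to 12.05 on the other 5 arrays. Esrp1, an epithelial splicing regulator, was at 9.36 against 13.51 to 13.92. Smgc, a secretory gene of the developing submandibular gland, was at 7.10 against 12.72 to 15.07, and Lman1l, a cargo receptor gene of the acinar list, at 6.56 against 11.90 to 13.10. Trps1 and Hr, encoding a GATA-type and a hairless-type repressor, were at 7.92 and 7.26. Of 22 tested genes of epithelial adhesion, 21 had differences below 0. The median of the list, -0.45, was -0.01 without that array, so adenocarcinoma 1 and 2 were level with dysplasia. Ocln, the tight junction protein occludin, was lower on all 3 adenocarcinoma arrays at 7.71, 7.52 and 6.05 against 8.68, 7.97 and 8.26. Summed epithelial markers were at 9300 on adenocarcinoma 3 and at 21000 to 38800 on the 5 other arrays. The acinar genes Amy1, Smr3a, Chia1 and Dnase1 were at 14.54, 15.46, 15.32 and 14.82 on adenocarcinoma 3, against 14.57, 15.63, 15.35 and 14.09 on adenocarcinoma 1.

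Several genes of the major histocompatibility complex on chromosome 17 also set adenocarcinoma 3 apart, and here probes of 1 gene disagreed. H2-Ea, a class II chain, was at 5.82 on adenocarcinoma 3, below background, and at 5.89 to 5.99 on the normal arrays, against 9.46, 11.17 and 11.52 in dysplasia and 13.64 and 9.68 on adenocarcinoma 1 and 2. H2-Ea is known to be silent in mouse strains with the b haplotype of this complex. One probe of H2-K1, a class I chain, was at 8.03 on adenocarcinoma 3 and at 11.84 to 13.47 on the 5 other arrays. Another H2-K1 probe was at 13.25, 13.06 and 12.38 on dysplasia 1, adenocarcinoma 2 and adenocarcinoma 3 but at 8.28, 8.50 and 8.60 on dysplasia 2, dysplasia 3 and adenocarcinoma 1. The class II chain H2-Aa split the arrays in the same way, at 9.03, 8.89 and 11.48 on the first 3 and at 6.29, 6.23 and 7.24 on the others. H2-Q6 was at 7.92 on adenocarcinoma 3, with 8.96, 8.67 and 12.41 on the normal arrays. Whether the mice differed in strain was not tested, and the levels of these genes are uncertain.

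**Figure D5:**
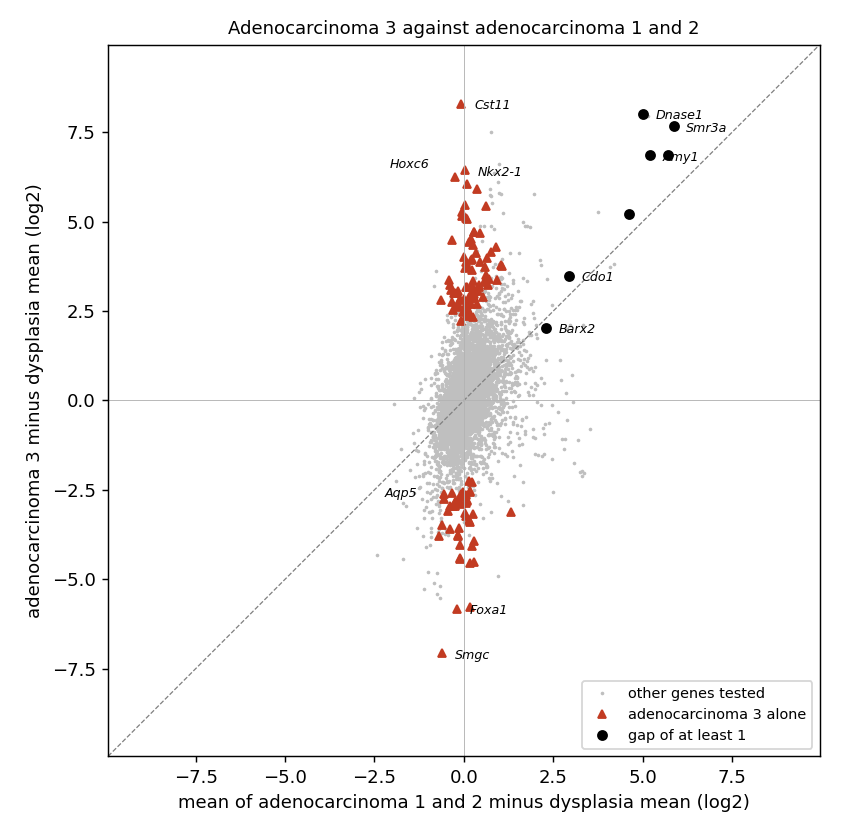
For each of the 11940 genes tested, the log2 difference of adenocarcinoma 3 from the dysplasia mean (vertical axis) against that of the mean of adenocarcinoma 1 and 2 (horizontal axis); the dashed line marks equal differences. The 7 genes with a gap of at least 1 (black circles) lie in the upper right, with Barx2 and Cdo1 nearest to the dashed line and Dnase1 farthest above it, and the 128 genes of adenocarcinoma 3 alone (red triangles) near 0 on the horizontal axis.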

How the data were processed

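Intensities of 9 Illumina BeadChip arrays were used as deposited by the authors, on a linear scale and normalized to 1 common distribution (sorted columns differed by at most 0.099%, lowest value 42.4), and were turned into log2 values here. The submitters' processing notes name limma, with no version, and do not state a background correction. Another table, with 18 columns of per-sample values whose names match no label, was left out. The platform annotation gave 34885 probes 1 gene symbol, 18 several and 10378 none; entrez identifiers of 34807 matched RefSeq (GRCm38.p6) and 0 symbols changed.

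The background level (intensity 81.3) came from the mode of all intensities (66.7) and the spread below it, at 1.645 standard deviations. Of the genes tested, 4910 had more than 1 probe past the filter. Groups, taken from the titles, were compared on the 6 arrays with limma (version 3.58.1, run in R 4.3.3 and leaving 4 residual degrees of freedom) with Benjamini-Hochberg adjustment; a fold is 2 to the power of the difference of log2 means, and a bound uses the background level for lower values. The fit was checked on simulated data.

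Members, gene lists and the rule for named genes were chosen with earlier results of these data known. Named were the 12 largest gaps in each direction, the 8 largest distances in each direction among genes of adenocarcinoma 3 alone, up to 4 members without overlap of each list or else 2 with the largest differences, and 12 fixed genes, leaving out clone names. Members of a list given beyond these, second probes, the further Hox genes and the H2 genes were chosen after their values were seen. Alternatives covered the arrays in the fit, array weights, the replicate number as a block, an offset of 16, filters, the mean over probes, centring, cyclic loess and leaving out each array. Figures were drawn with matplotlib 3.10.9.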

Additional observations from a re-analysis of the deposited data

How the results depend on the processing

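In every setting run, limma called 0 genes at an adjusted p of 0.05. The number at an unadjusted p under 0.05, 528 here, was 829 on 8 arrays without normal 3, 2847 with array weights, 890 with no filter on low values and 274 to 1220 when 1 array was left out. With the replicate block it was 659, again with 0 called. Deviations of same-numbered arrays from their group means correlated at -0.2, 0.1 and 0.17. Such values, from so few arrays, cannot decide whether the numbers pair the samples, and the labels do not say. Leaving out 1 array changed the 7 genes with a gap of at least 1 to 12 to 167 (the most without adenocarcinoma 2; 8 with cyclic loess), the 128 of adenocarcinoma 3 alone to 111 to 244, the macrophage count of 9 to 9 to 19 (6 with cyclic loess), the cholesterol count of 5 to 5 to 9 (9 without adenocarcinoma 3 or dysplasia 3) and the acinar count of 8 to 8 to 11. With fewer arrays more genes separate by construction: 6.03% of all genes were higher and 9.92% lower without adenocarcinoma 3. Of 2135 values of 126 named genes over 17 settings, 2113 kept their direction and 22 reversed. With array weights Cdkn1c was at -0.05, Cdkn2a at 0.05, Myc at 0.01 and Il1rn at 1.13. Leaving out 1 array gave -0.21 to 3.53 for Klk1b1, -0.46 to 1.72 for Muc13, -0.23 to 2.79 for Egf, -0.1 to 0.03 for Myc, -0.07 to 4.13 for Cst11, -0.25 to 3.10 for Hoxc6, -0.06 to 2.62 for Wfdc6a, -3.12 to 0.15 for Lman1l, -2.35 to 0.27 for H2-Q6, -2.55 to 0.17 for H2-K1, -2.09 to 0.23 for Hr, -0.40 to 1.52 for Alas2, -0.05 to 1.42 for Hbb-b2, -1.68 to 0.63 for Il1rn and -0.39 to 1.69 for Ccnd1. Apart from the construction named, the cause was not tested. With 3 arrays in each group, dim probes near background and bright ones near 15.63 carry the least information.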

Other observations

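Single arrays other than adenocarcinoma 3 also held genes of their own, named here after their values were seen. On adenocarcinoma 1, Serpinb11 was at 12.91 against 6.47 to 7.67 on the 5 other arrays and 11.79, 11.42 and 8.17 in normal glands, and Cyp2f2, a cytochrome P450, at 13.33 against 7.43 to 9.56. The duct and immune transport receptor Pigr was at 10.03 there and at 6.94 to 7.57 on the others, and the neuropeptide Gal at 10.53 against 6.15 to 7.54. In normal glands Cyp2f2 was at 13.85, 14.24 and 10.61, Pigr at 11.55, 11.05 and 8.04, and Gal at 8.76, 8.81 and 7.12.

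On dysplasia 3 the matrix metalloproteinase gene Mmp10 was at 12.08 against 6.52 to 7.19 on the 5 other arrays, the chemokine gene Ccl20 at 9.68 against 6.16 to 6.54, and the natriuretic peptide gene Nppb at 10.96 against 6.03 to 7.75. On dysplasia 1, Wdr11 was at 14.63, with 9.85 on adenocarcinoma 1 and 7.42 to 7.76 on the other 4, and the phosphatase gene Dusp8 at 13.42 against 7.63 to 8.96. The matrix genes Dcn and Serpinf1 were low on that array, at 8.29 and 8.55, against at least 10.96 and 10.66 elsewhere in the comparison.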
